A study of Oryza sativa with 6 samples.

Results

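The GRXC genes of rice encode glutaredoxins with a cysteine pair in the active site. Members were the probe sets of the Affymetrix rice array whose platform annotation names exactly 1 gene with a GRXC symbol or synonym from a list of 10 genes. Of these 10, 7 genes had such a probe set, 1 each, among 17905 genes read by a probe set of a single gene: GRXC1, GRXC3, GRXC6, GRXC7, GRXC8, GRXC10 and GRXC15. GRXC2 and GRXC14 are in the gene table used for names but had no probe set under this rule, and GRXC9 was not matched by name, so these 3 were not analysed here. The family was chosen by its measured signals in these arrays, because members differed between the lines in opposite directions. Their differences between the lines are therefore given as a description, with no p-value.

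Glutaredoxins are small enzymes that use glutathione to reduce disulfide bonds or to take glutathione off modified cysteines in other proteins. The CPYC type, named for the residues of its active site, is the older form, found from bacteria to plants, and works as a general reductase. The CC type is found only in land plants, and in Arabidopsis its members bind TGA transcription factors and act in flower development, in responses to pathogens and hormones, and in signalling of nitrogen status. By background knowledge GRXC6 and GRXC8 are of the CPYC type, and GRXC1, GRXC3, GRXC7, GRXC10 and GRXC15 of the CC type. No protein sequences were used here to check these classes.

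The data hold 3 arrays of the transgenic line KMD and 3 of its wild-type parent XS11, both of the cultivar Xiushui 11. All 6 read leaves of 30-day seedlings grown at 30 °C in the light and 26 °C in the dark. From background knowledge, KMD is a Bt rice with cry1Ab, an insecticidal protein gene from Bacillus thuringiensis, although its labels name no transgene. It is 1 transgenic line, so differences made by the inserted DNA and other differences between the lines cannot be told apart. Arrays of a line are described as biological replicates, but the number of plants behind each is not stated, so the spread covers only these samples.

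Some facts of the whole data set bear on the members. Of 64 reporter probe sets for transformation sequences, 3 read between 1632 and 4437 in KMD arrays and between 8.96 and 18.2 in XS11 arrays. Across 34355 tested probe sets, 13666 (39.8%) passed limma's test at an adjusted p of 0.05, with 6226 (18.1%) higher and 7440 (21.7%) lower in KMD. The poly-A spike-ins, RNA added before labelling, were read by 36 probe sets that were all higher in KMD, by a mean of 0.62 on the log2 scale. Centring the arrays on them moved the median log2 difference of all tested probe sets to -0.62, against 0.0017 as deposited, and left 324 higher and 32550 lower. For actin, the ratio of 3' to 5' signal stood at 5.79 ± 0.14 in KMD and 4.62 ± 0.30 in XS11, and for GAPDH at 3.48 ± 0.05 in KMD and 2.75 ± 0.21 in XS11 (SD, n = 3 each). Ubiquitin gave 1.17 ± 0.02 in KMD and 0.99 ± 0.03 in XS11, while cyclophilin was lower in KMD, with 0.91 ± 0.06 there and 1.06 ± 0.05 in XS11. The part of these shifts in the member differences was not tested, beyond the rescaled values given below.

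GRXC15 (gene 4352426), a CC-type glutaredoxin, differed most. Its probe set read 597, 624 and 568 in the 3 KMD arrays, against 122, 118 and 112 in the 3 XS11 arrays. All KMD arrays were thus far above all XS11 arrays, and each line held its arrays within a narrow band. The means were 596 ± 28.1 in KMD and 117 ± 5.34 in XS11 (SD, n = 3 each). The log2 scale adds 11.17, the 10th percentile of all deposited values, to each signal first, and on it the difference was 2.24 (SE 0.05), or 4.72-fold. Among all 34355 tested probe sets, 45 had a larger rise in KMD. Relative to the poly-A spike-ins the GRXC15 difference was 1.62, still higher in KMD.

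GRXC1 (gene 4325734), also of the CC type, was higher in KMD by a smaller step. Its probe set read 3372, 3679 and 3498 in KMD, against 2174, 2166 and 2184 in XS11. The lines did not overlap, and the coefficient of variation over the arrays was 4.38% in KMD and 0.41% in XS11. The log2 difference was 0.69 (SE 0.04), a 1.61-fold higher level in KMD on that scale. It was larger than the difference of 95.4% of all tested probe sets in absolute size. This difference depended on the scale: relative to the poly-A spike-ins it was 0.07, so GRXC1 moved by slightly more than the spike-ins themselves.

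GRXC7 (gene 4338050), a further CC-type gene, went the other way. Its probe set read 217, 229 and 243 in KMD, against 683, 674 and 632 in XS11. Every KMD array lay below every XS11 array. The means were 230 ± 13.2 in KMD and 663 ± 27.3 in XS11 (SD, n = 3 each). This is -1.49 (SE 0.05) on the log2 scale, or a 2.80-fold higher level in XS11. Of all tested probe sets, 129 had a larger fall in KMD. On the spike-in scale GRXC7 was at -2.11, so its direction was the same on both scales.

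The remaining CC-type genes, GRXC10 and GRXC3, were dim in both lines. They were not tested, because their mean signals lay outside the upper 60% of all probe sets. GRXC10 read 12.04, 12.05 and 14.30 in KMD, against 5.64, 4.42 and 6.64 in XS11. Its KMD arrays were all above its XS11 arrays, but the XS11 values lie under the 10th percentile of all values and the KMD values just over it, so neither line is shown to be above background. The log2 difference of 0.52 is compressed by the added 11.17 and no fold is drawn from it. GRXC3, known in rice as ROXY2 after the Arabidopsis ROXY genes of petal and anther development, read 14.4, 14.5 and 16.2 in KMD, against 15.3, 12.3 and 17.3 in XS11. These arrays overlapped, and the log2 difference was 0.0064. Its probe set is of the s_at type, which can read more than 1 transcript.

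Both CPYC-type genes overlapped between the lines. GRXC6 read 4001, 4356 and 4138 in KMD, against 4021, 4024 and 3907 in XS11. Its lowest KMD array lay below the highest XS11 arrays, and the log2 difference was 0.06 (SE 0.04). GRXC8 read 572, 640 and 605 in KMD, against 610, 566 and 587 in XS11. Its arrays were interleaved, with a log2 difference of 0.04 (SE 0.05). Neither passed limma's test as deposited, which does not show that their levels were equal. The calls were scale-dependent: GRXC6 was called higher after quantile normalization (0.15), and relative to the poly-A spike-ins GRXC6 (-0.56) and GRXC8 (-0.58) were both called lower in KMD.

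**Figure D1:**
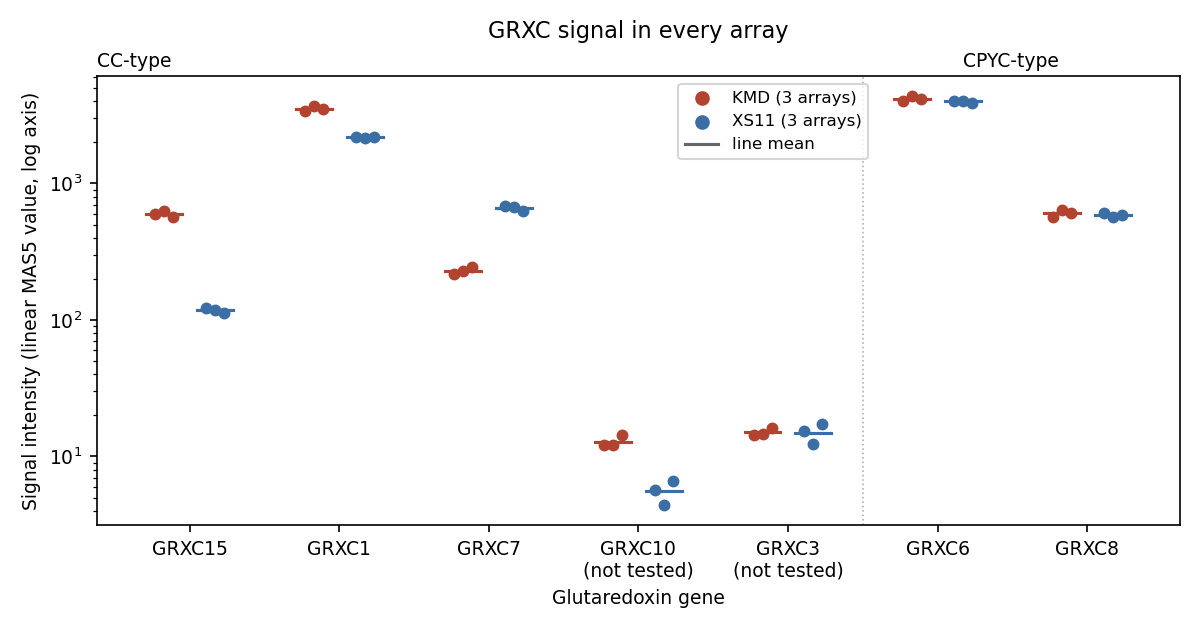
Signal of the 7 GRXC probe sets in each array, as linear MAS5 intensity on a log axis, with the 3 KMD arrays (red) left of the 3 XS11 arrays (blue) and a bar at each line's mean. GRXC15 and GRXC1 are higher in all KMD arrays and GRXC7 is lower in all of them, while GRXC6 and GRXC8 overlap; levels of different probe sets are not comparable with each other.

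Read together, 5 of the 7 measured members were tested, and of these 2 were called higher in KMD (GRXC15 and GRXC1), 1 lower (GRXC7) and 2 neither. The shares over all tested probe sets were 18.1% and 21.7% in the same directions. In 3 of the 5 the arrays of the lines did not overlap, which held for 48.9% of all tested probe sets. Since this contrast chose the family, nothing is read from these counts or from the medians that follow. The median absolute log2 difference was 0.69 over the 5 members and 0.14 over all tested probe sets, while the signed medians were 0.06 and 0.0017.

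In the order of their log2 differences, the tested members ran from GRXC15 at 2.24 through GRXC1 at 0.69, GRXC6 at 0.06 and GRXC8 at 0.04 to GRXC7 at -1.49. GRXC6 and GRXC8 lie within their standard errors of each other. The spacing of the members is a description only, since this contrast chose the family. Both members of the CPYC type stand between the CC-type genes on either side. Within a line the members varied little: coefficients of variation over the 3 arrays ran from 4.30% to 5.75% in KMD and from 0.41% to 4.55% in XS11 for the 5 tested genes. KMD replicate 2 was the highest KMD array for 4 of the 5, all but GRXC7. Leaving out any 1 of the 6 arrays kept GRXC15 between 2.21 and 2.27, GRXC1 between 0.66 and 0.72, and GRXC7 between -1.53 and -1.45.

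**Figure D2:**
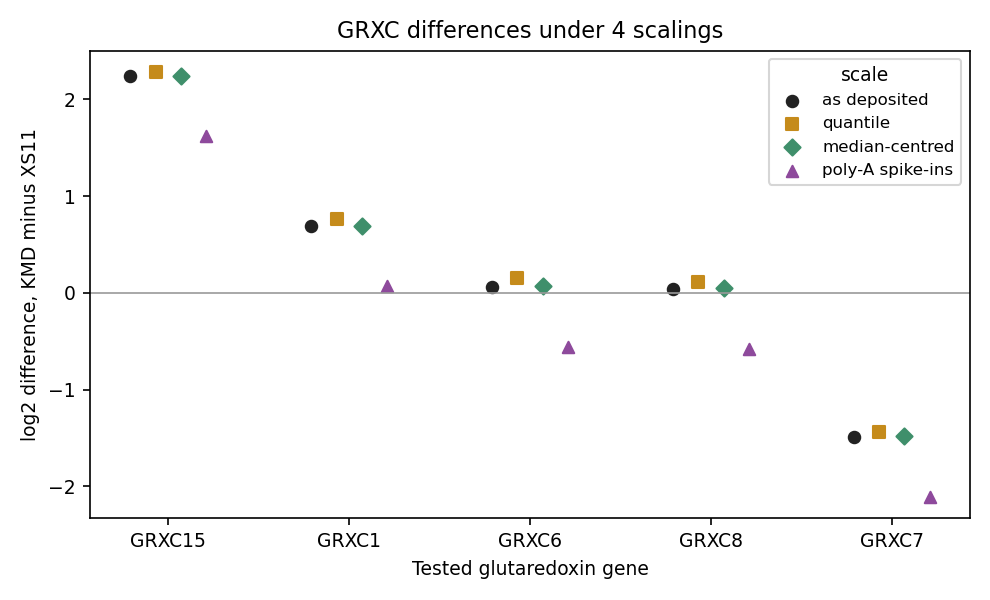
Log2 difference, KMD minus XS11, of the 5 tested GRXC genes under 4 scalings of the arrays: as deposited, quantile-normalized, centred on the median and centred on the poly-A spike-ins. GRXC15 stays above 0 and GRXC7 below 0 in all 4, while the spike-in scale brings GRXC1 to 0.07 and puts GRXC6 and GRXC8 below 0.

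In the gene table, GRXC14 and GRXC15 are direct neighbours, as are GRXC10 and GRXC11, and 3 genes lie between GRXC11 and GRXC13. GRXC14 has no probe set here, so whether it shares the higher KMD level of its neighbour was not measured. The nearest 2 measured genes on each side of a member were looked up after the member values were known. Around GRXC15 the 3 tested neighbours had log2 differences from -0.14 to 0.22, the highest at LOC4352424, which read 915 ± 4.46 in KMD and 786 ± 20.0 in XS11 (SD, n = 3 each). The large step at GRXC15 was thus not seen in these neighbours. Around GRXC7, 2 of 4 neighbours were tested. LOC9268269 stood at -0.95 (SE 0.06) on the log2 scale, reading 114 ± 4.28 in KMD and 230 ± 5.54 in XS11 (SD, n = 3 each). OsZIP3, named for the ZIP family of metal transporters, stood at 0.36 (SE 0.08), and it is the one next to GRXC7. The spike-in scale lies 0.62 lower, so OsZIP3 and LOC4352424 would be below 0 on it. The 3 tested neighbours of GRXC1 stood between -0.36 and -0.24, opposite in sign to GRXC1.

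The genes most like GRXC15 and GRXC7 were found by the root mean square difference between their log2 signals over the 6 arrays, each gene centred on its own mean, among 2531 tested probe sets with a gene name. With 2 lines this measure follows mainly the size of the line difference. Nearest to GRXC15 were BURP2, of the BURP domain family, at 0.21, the calcium-sensor-regulated kinase gene CIPK14 at 0.23 and CAD8C, of the cinnamyl alcohol dehydrogenase family, at 0.35. BURP2 read 498 ± 32.5 in KMD and 70.6 ± 2.44 in XS11, and CIPK14 read 216 ± 5.15 in KMD and 55.1 ± 2.76 in XS11 (SD, n = 3 each). Nearest to GRXC7 were JAZ11, a repressor of jasmonate signalling, at 0.06, the metallothionein gene MT2C at 0.09 and DAHPS2, named for the enzyme that opens the shikimate pathway, at 0.10. JAZ11 read 44.6 ± 0.73 in KMD and 151 ± 1.99 in XS11 (SD, n = 3 each). GRXC7 had closer matches than GRXC15 had. Its fall was also less extreme: 129 tested probe sets fell more than GRXC7 and 45 rose more than GRXC15, so nothing is read from this closeness.

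The other glutaredoxins on the array carry GRXS names, which mark a serine in place of the second active cysteine. Whether any of them is of the CC type was not checked here. Of 11 such genes 10 were tested, and 6 rose, 0 fell and 4 did not pass (limma with Benjamini-Hochberg adjustment over all probe sets; 18.1% of all tested probe sets rose). GRXS10 rose by 0.44 (SE 0.04), at 916 ± 17.2 in KMD and 671 ± 19.8 in XS11 (SD, n = 3 each), and its other probe sets gave 0.36 each. GRXS5 rose by 0.43 (SE 0.04), at 1493 ± 90.6 in KMD and 1106 ± 18.5 in XS11. GRXS1 rose by 0.36 (SE 0.04), at 564 ± 11.2 in KMD and 436 ± 8.27 in XS11. GRXS10, GRXS5 and GRXS1 had limma adjusted p-values of 6.3e-07, 3.09e-06 and 6.43e-06.

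GRXS6 (0.30), GRXS4 (0.27) and GRXS9 (0.10) also rose, and GRXS7 (0.08), GRXS11 (0.02), GRXS12 (-0.05) and GRXS2 (-0.05) did not pass. These 7 are named although they fall outside the rule for named genes. The call of GRXS9 (limma adjusted p = 0.039) did not survive the removal of any 1 of 4 arrays: KMD replicate 2 (leaving 0.08), KMD replicate 3 (0.11), XS11 replicate 1 (0.11) or XS11 replicate 2 (0.08). It was also lost in limma without the filter (adjusted p = 0.053), with median centring (0.06), without the variance trend (0.17) and with a replicate block (0.067). A second probe set of GRXS4 gave 0.13 and did not pass (limma adjusted p = 0.13). For GRXS11, a second probe set gave -0.09 and did not pass (limma adjusted p = 0.0595), with every KMD array below every XS11 array. GRXS3 was too dim to be tested. Some probe sets are of types that can read related transcripts too, among them those of GRXS10, GRXS2, GCS, MT2C and RBCS. The whole list was scale-dependent: relative to the poly-A spike-ins 0 of the 10 genes were higher and 10 were lower in KMD, GRXS10 at -0.18, GRXS5 at -0.19 and GRXS1 at -0.26. The median log2 difference of the list was 0.19, against 0.0017 over all tested probe sets. The range over its 15 probe sets, tested or not, was from -0.09 to 0.44, and GRXC15, GRXC1 and GRXC7 all lie outside it. The GRXC family was chosen by this contrast, so nothing is read from that.

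**Figure D3:**
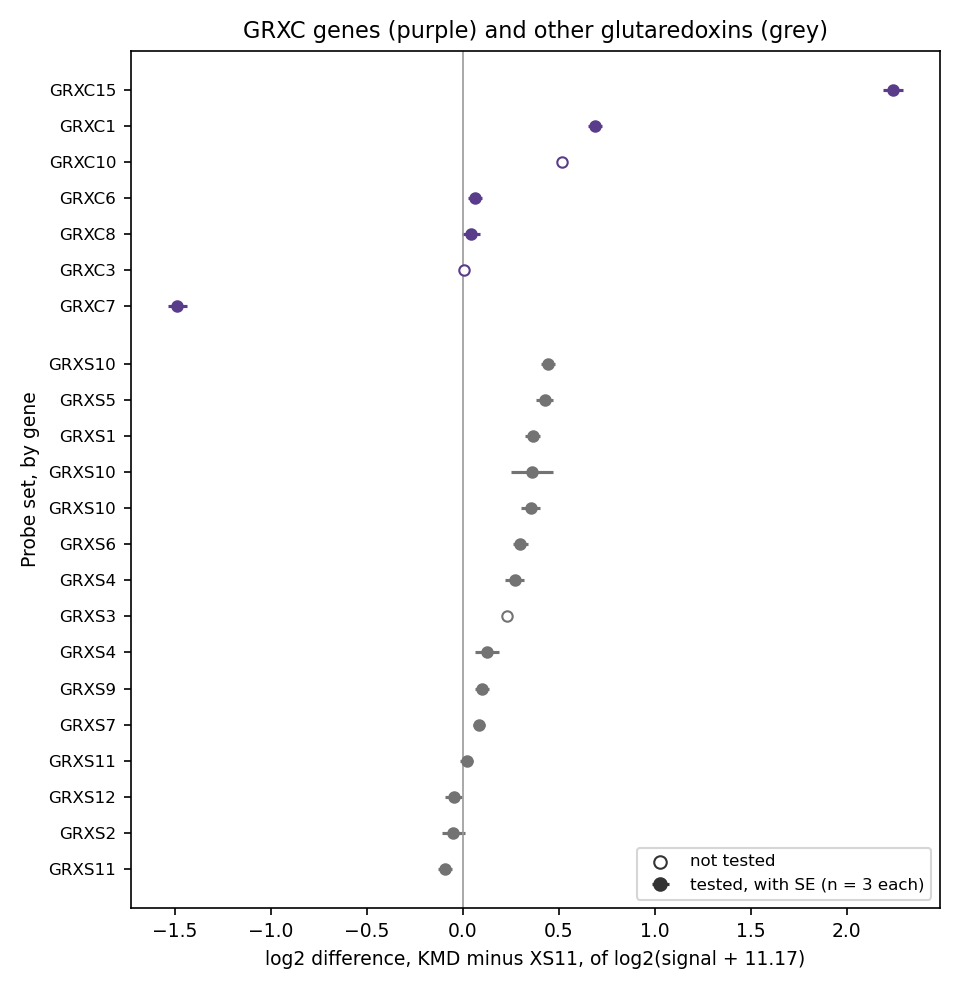
Log2 difference, KMD minus XS11, for every glutaredoxin probe set, GRXC genes above (purple) and GRXS genes below (grey), with bars for the standard error (n = 3 arrays per line) and open circles for probe sets too dim to be tested. GRXS probe sets lie between -0.09 and 0.44, while GRXC15 is at 2.24 and GRXC7 at -1.49, in a family chosen by this contrast.

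Glutaredoxins are recharged by glutathione. The list drawn up for glutathione synthesis and reduction held 4 measured genes: 1 was called higher, 1 lower and 2 neither, a called share of 50%, against 39.8% of all tested probe sets. Those that did not pass, MDAR2 and MDAR5, are monodehydroascorbate reductases, which recycle ascorbate and neither make nor reduce glutathione. GCS, also named GSH1-1 after the enzyme that starts glutathione synthesis, rose by 0.23 (SE 0.04), at 1224 ± 34.0 in KMD and 1044 ± 27.0 in XS11 (SD, n = 3 each, limma adjusted p = 0.00022). GRC2, a glutathione reductase, fell by 0.25 (SE 0.04), at 1825 ± 112 in KMD and 2171 ± 5.25 in XS11 (limma adjusted p = 0.00024). On the spike-in scale GCS turned to -0.39, and all 4 genes of the list were called lower.

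Glutathione transferases attach glutathione to small molecules. Only 5 genes of this family were matched by name, of which 2 rose and 3 fell, against 18.1% and 21.7% of all tested probe sets. GSTU6 rose by 0.51 (SE 0.07), at 87.3 ± 5.24 in KMD and 58.1 ± 1.04 in XS11, and GSTZ3 by 0.48 (SE 0.04), at 1105 ± 33.2 in KMD and 788 ± 19.6 in XS11. GSTF2 fell by 0.44 (SE 0.04), at 2771 ± 122 in KMD and 3756 ± 91.8 in XS11 (SD, n = 3 each). The limma adjusted p-values were 8.77e-05 for GSTU6, 2.81e-07 for GSTZ3 and 5.77e-07 for GSTF2. Relative to the spike-ins 0 of the 5 were higher and 3 were lower, with GSTU6 at -0.12 and GSTZ3 at -0.14.

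Thioredoxins form a parallel system that draws on NADPH or ferredoxin, and peroxiredoxins are among its targets. All 22 measured genes were tested: 8 were called higher in KMD, 5 lower and 9 neither, around a median log2 difference of 0.04. The list also holds 6 methionine sulfoxide reductases, repair enzymes that thioredoxins recharge, and 3 of the 8 rises (MSRA5, MSRB3 and MSRB5) are of this kind. The called share was 59.1%, against 39.8% of all tested probe sets. Among only the upper 40% of probe sets by signal, 12327 of 22903 were called, a larger share. The shares given for this and the other lists were not matched for brightness. PRXIIE-1, a type II peroxiredoxin, fell by 0.91 (SE 0.06), at 145 ± 9.86 in KMD and 283 ± 7.63 in XS11 (SD, n = 3 each, limma adjusted p = 3.76e-08). TRXY, a y-type thioredoxin, rose by 0.42 (SE 0.03), at 1558 ± 5.12 in KMD and 1164 ± 14.6 in XS11 (limma adjusted p = 2.33e-07). PRXIIF, another type II peroxiredoxin, rose by 0.38 (SE 0.08), at 519 ± 74.5 in KMD and 394 ± 19.1 in XS11 (limma adjusted p = 0.0016). On the spike-in scale TRXY (-0.20) and PRXIIF (-0.24) turned, and 0 genes were higher and 22 lower.

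TGA bZIP factors, which CC-type glutaredoxins are known to bind in Arabidopsis, were listed with the NPR1 family of their co-regulators. Of 17 genes 15 were tested, and 1 was called higher, 5 lower and 9 neither, around a median log2 difference of -0.07. The called share of 40% was close to the 39.8% of all tested probe sets. The gene named NH1 or NPR1, the rice relative of the Arabidopsis salicylic acid receptor, fell by 0.55 (SE 0.06), at 101 ± 5.19 in KMD and 152 ± 6.35 in XS11 (SD, n = 3 each, limma adjusted p = 1.25e-05). NPR4 (gene 4327365) fell by 0.43 (SE 0.08), at 59.6 ± 3.60 in KMD and 83.9 ± 6.20 in XS11 (limma adjusted p = 0.0007). A further gene with NPR4 among its names, NH4 (gene 4325758), stood at 0.27 (SE 0.12) and did not pass. TGAL8 fell by 0.35 (SE 0.10), at 39.1 ± 2.93 in KMD and 53.0 ± 7.68 in XS11 (limma adjusted p = 0.011), a call lost without XS11 replicate 1 (-0.25). The count of rises was 2 without KMD replicate 3 or without XS11 replicate 1, and 3 without XS11 replicate 3. The factors TGA2.1 (0.06), TGA2.2 (-0.11) and TGA2.3 (0.11), named after their values were seen, did not pass. Relative to the spike-ins 0 genes of this list were higher and 15 lower.

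Protein disulfide isomerases carry thioredoxin-like domains and fold proteins in the endoplasmic reticulum. Of 11 genes 8 were tested, of which 1 rose and 7 fell, against 18.1% and 21.7% of all tested probe sets. PDIL5-2 fell by 0.39 (SE 0.05), at 223 ± 8.90 in KMD and 295 ± 16.5 in XS11 (SD, n = 3 each), PDIL5-4 by 0.38 (SE 0.04), at 461 ± 20.6 in KMD and 605 ± 14.7 in XS11, and PDIL1-1 by 0.37 (SE 0.06), at 283 ± 10.1 in KMD and 370 ± 29.5 in XS11. Their limma adjusted p-values were 5.99e-05, 9.66e-06 and 0.00015. The median of the list was -0.30 on the log2 scale, and all 8 were lower on the spike-in scale.

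**Figure D4:**
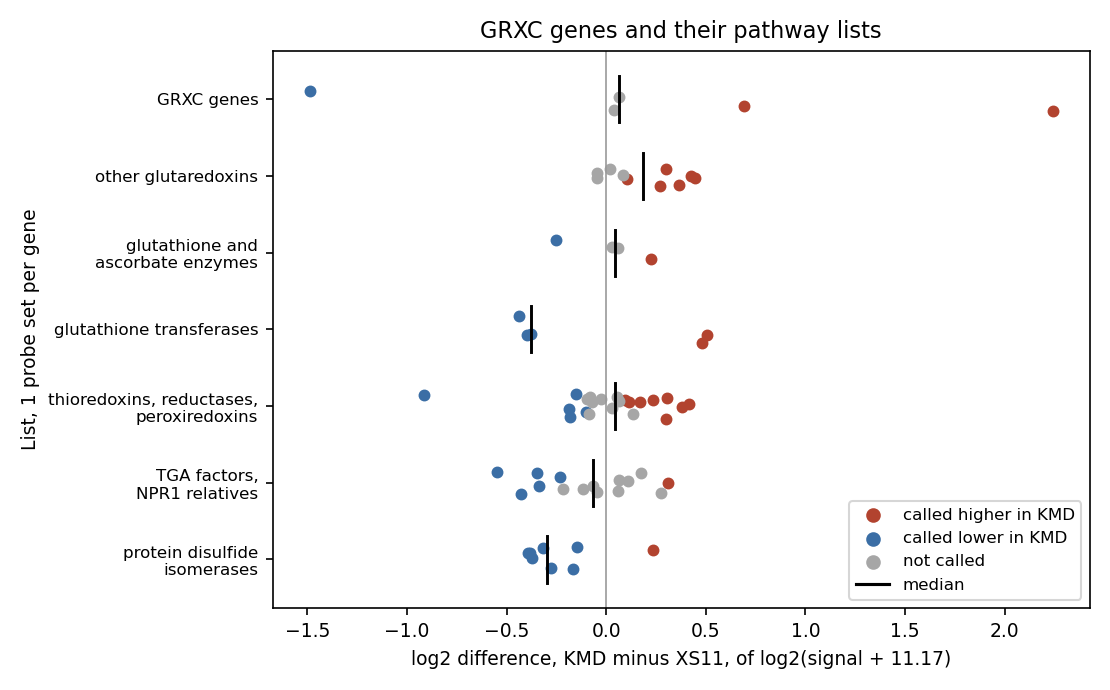
Log2 difference, KMD minus XS11, of tested genes in the GRXC family and 6 pathway lists, 1 point per gene, coloured by the limma call (red higher, blue lower, grey not called), with a bar at each list's median. The GRXC genes hold the largest rise (2.24) and the largest fall (-1.49) of those drawn, but their family was chosen by this contrast. The lists were drawn up with earlier results of these data known. The list of protein disulfide isomerases lies mostly below 0.

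The labelled tissue was checked with leaf genes. Of 6 leaf markers 5 were tested, of which 0 rose and 3 fell, against 18.1% and 21.7% of all tested probe sets. RBCS, the small subunit of the carbon-fixing enzyme Rubisco, read 16012 ± 112 in KMD and 16111 ± 304 in XS11, and its activase RCA read 12650 ± 173 in KMD and 14344 ± 93.3 in XS11 (SD, n = 3 each). The RBCS value was the maximum of every array but XS11 replicate 1. Whether its signal was limited at the top of the scale was not tested. The summed signal of the 6 leaf markers ran from 50158 to 51244 in KMD and from 53883 to 54286 in XS11. RBCS1 was dim in both lines, at 19.5 ± 1.28 in KMD and 15.5 ± 2.01 in XS11.

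Of 8 root markers 5 were tested, with 0 rises and 3 falls, against 18.1% and 21.7% of all tested probe sets. The summed signal of the 8 ran from 435 to 465 in KMD and from 575 to 620 in XS11. Of 6 anther and panicle markers 2 were tested, with 1 rise and 1 fall, against the same shares. The summed signal of the 6 ran from 221 to 258 in KMD and from 343 to 350 in XS11. SPW1, a floral identity gene, carried this difference, at 145 ± 14.4 in KMD and 255 ± 3.46 in XS11 (SD, n = 3 each). The sums of the other 5 genes overlapped, from 88.8 to 98.8 in KMD and from 90.6 to 95.0 in XS11. The anther gene CYP703A3 read 7.16 ± 0.76 in KMD and 7.94 ± 1.33 in XS11, and the root iron transporter gene IRT2 read 9.23 ± 1.32 in KMD and 8.60 ± 0.92 in XS11, all under the 10th percentile of all values. In bulk leaf RNA, fewer cells of a type and less RNA per cell cannot be told apart. For the leaf and root lists, and for the anther list only through SPW1, the KMD sums lay below the XS11 sums without overlap. Among all tested probe sets, 48.9% had no overlap between the lines, in either direction. The part of these marker lists in the GRXC differences was not tested.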

How the data were processed

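Leaf RNA of 3 KMD and 3 XS11 samples, grouped by their titles, was hybridized after biotin labelling. The deposited values are linear microarray intensity, 1 per probe set and array, made by the authors with MAS5, per the submitters' processing notes: version and scaling target were not given in the sources used here. In all, the table held 57381 probe sets, and its gene names came from the platform annotation (22436 probe sets with 1 gene, 95 with several, 34850 with none) and the RefSeq table of assembly ASM3414082v1. No build is named for the values, so no positions are printed.

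Signals were taken as log2(signal + 11.17), as deposited. Controls and the dimmest probe sets were left out, keeping the upper 60% by mean log2 signal, and limma 3.58.1 in R 4.3.3 compared the lines (lmFit, then eBayes with trend, a two-sided test), with Benjamini-Hochberg adjustment over all 34355 and a threshold of 0.05. On simulated data for this comparison, with 34355 probe sets, 55.2%, 98.5% and 100% of changes of 0.5, 1 and 2 (log2) were recovered. Only 67, 67 and 66 probe sets were changed there, far fewer than the 13666 called in the data. The adjustment is stricter when few probe sets change, so these shares do not give the recovery in the data. The number of arrays limits the precision.

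Members, lists and named genes were chosen with earlier results of these data known. Lists were matched by symbol or synonym, with the brightest probe set of each gene. They hold only genes matched in this way and do not cover whole families. For glutathione transferases 155 symbols matched 5 genes, and for the glutathione list 37 symbols matched 4. TRX1, whose synonyms mark a SET-domain gene, was left out. The rule for named genes took every member, up to 3 called genes of each list by size of change, and the 3 genes nearest to the largest rise and fall. The alternatives were other pseudocounts, filters, scalings and error models, a replicate block and leaving out each array. Figures were drawn with matplotlib 3.10.9 in Python 3.11.15.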

Additional observations from a re-analysis of the deposited data

How the results depend on the processing

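GRXC15 and GRXC7 kept their direction and side of the threshold in all 15 alternatives. GRXC1 kept them in 14 and did not pass relative to the poly-A spike-ins (0.07). All alternatives reuse the arrays that chose the family, so they show only how the values depend on the processing. Quantile normalization brought GRXC6 past the threshold (0.15), for 3 GRXC genes higher in place of 2. Without the filter, GRXC10 (0.52) entered the test and passed, again for 3 higher, and GRXC3 (0.0064) did not pass. Centring on the spike-ins, which lowers every difference by 0.62, gave 32874 calls (324 higher, 32550 lower), with 1 GRXC gene higher and 3 lower. It reversed GRXC6 (-0.56), GRXC8 (-0.58), GCS (-0.39), GSTU6 (-0.12), GSTZ3 (-0.14), GRXS10 (-0.18), GRXS5 (-0.19), GRXS1 (-0.26), GRXS9 (-0.52), TRXY (-0.20) and PRXIIF (-0.24). On that scale every list had 0 genes higher, and those lower numbered 4 in the glutathione list, MDAR2 and MDAR5 included, 10 for other glutaredoxins, 15 for TGA and NPR1 genes and 22 in the thioredoxin list.

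The glutathione list had 2 rises after quantile normalization or with all probe sets, TGA and NPR1 genes 2 after quantile normalization, median centring or with all probe sets, and disulfide isomerases 2 without the filter. The thioredoxin list had 3 falls after quantile normalization. Causes of these shifts were not tested. Leaving out 1 array gave 11863 to 13486 calls in all, and 1 to 3 rises among TGA and NPR1 genes. Same-numbered arrays of the lines did not deviate together (correlations of -0.24, -0.0078 and -0.26), so no pairing by number was seen. Differently numbered arrays gave correlations from -0.058 to 0.32, and whether arrays shared a processing batch was not tested. The replicate block gave 12448 calls and 5 rises among other glutaredoxins. It left GRXC15 at 2.24, GRXC1 at 0.69 and GRXC7 at -1.49. Without detection calls, the limits of GRXC10 and GRXC3 over background are unknown.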
